A study of Mus musculus with 15 samples.

Results

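The 6 genes Clec7a, Clec4n, Clec4d, Clec4e, Clec5a and Clec4a2 encode C-type lectin receptors of myeloid cells. They were picked by name, with their levels in silica and control lungs already known, from the 57010 genes of a lung RNA sequencing study in C57BL/J mice. The silica_DMSO group (4 libraries, replicates 2, 4, 5 and 6) received silica particles as nasal drops and, on the second day, dimethyl sulfoxide (DMSO), and the silica group (3 libraries, replicates 1, 2 and 7) received silica alone. The DMSO group (4 libraries, replicates 1, 4, 6 and 7) received DMSO without silica, and the control group (4 libraries, replicates 1, 2, 4 and 7) received physiological saline. Lungs of all groups were taken at day 30. Neither age nor sex is stated in the labels, no group carries a genetic change by its labels, and the extraction notes speak of retina where the tissue field says lung.

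C-type lectin receptors are surface proteins with which macrophages, monocytes, neutrophils and dendritic cells bind sugars and lipids of microbes and, in some cases, molecules released by dying cells. Clec7a encodes Dectin-1, the receptor for fungal beta-glucans, which signals through its own tail to the kinase Syk and the adaptor Card9. Clec4n encodes Dectin-2, a receptor for fungal mannans, and Clec4d encodes MCL, which forms complexes with Mincle. Clec4e encodes Mincle, a receptor for mycobacterial glycolipids and for a nuclear protein set free by dead cells. Dectin-2, MCL and Mincle signal through the Fc receptor gamma chain (Fcer1g), whereas Clec5a encodes MDL-1, which signals through DAP12 (Tyrobp). Clec4a2 encodes DCIR, the inhibitory receptor of the set, whose tail recruits the phosphatases encoded by Ptpn6 and Ptpn11.

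Libraries held between 17434653 and 20829923 counts. In 3 libraries, DMSO 7, silica_DMSO 4 and silica_DMSO 6, the thymus genes Rag1, Dntt and Foxn1 reached at least 2541, 1312 and 9.17 CPM (counts per library scaled to a common total), against at most 0.224, 0.433 and 0 CPM in the other 12. The 3 libraries are called thymus-like here, their values are given apart, and group tests use the 12 lung libraries, with the fit of all 15 beside them. Within the 12, genes over 3000 bases took 11.5% to 24.2% of the counts in silica_DMSO 5, silica 7, DMSO 1, DMSO 4 and control 1, and 34.0% to 44.9% in the other 7. These 5 are called short-gene libraries and the 7 long-gene libraries, a split that runs through every group. It bears on the scale used: TPM (counts per gene length scaled to the same sum in each library) put the median gene 2.15 below the control mean on the log2 scale in silica_DMSO 5 and 1.75 below in DMSO 4. CPM scaled by edgeR's trimmed mean of M-values (normalised CPM) put it within 0.17 in every library, so both scales are given. Whether the libraries of a group are separate animals is not said in the labels, so p-values measure the spread between libraries, which may be technical.

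All 6 receptors were detected in all 15 libraries, at levels that differed widely between them. Over the 12 lung libraries the median was 39.7 TPM for Clec7a (ENSMUSG00000079293), 33.8 TPM for Clec4n (ENSMUSG00000023349) and 14.3 TPM for Clec4a2 (ENSMUSG00000030148). It was 10.5 TPM for Clec4d (ENSMUSG00000030144), 3.81 TPM for Clec4e (ENSMUSG00000030142) and 3.41 TPM for Clec5a (ENSMUSG00000029915). Mincle RNA spanned the widest range, with the highest library 350.2 times the lowest, and DCIR RNA the narrowest, with a ratio of 4.19. Ratios for the other 4 genes lay between 20.7 and 38.8. The lowest Mincle value was that of control 1, 0.31 TPM from 24 counts, and the next lowest that of control 7, 2.19 TPM. Of the 90 expected counts of the 6 genes, 1 was not a whole number, that of Clec4a2 in DMSO 1. Clec4a2 lies among close relatives (Clec4a3, Clec4a4, Clec4b1), and the labels do not say how reads shared between them were assigned.

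The genes sit in 3 places on mouse chromosome 6. Clec4a2, Clec4n, Clec4d and Clec4e stand in that order in the Dectin-2 cluster with Clec4b2 between the first pair, Clec7a lies between Clec1a and Olr1 in the Dectin-1 cluster, and Clec5a stands apart from both. Promoter sequences are shown because the 6 genes varied together across libraries. They run from 250 bases before the transcription start to 50 bases after it and come from RefSeq on build GRCm38.p6, which held an entry for 5 of the 6 genes and 2 starts for Clec7a, of which 1 is shown. Each is printed 5′ to 3′ on the gene's own strand: chr6:129472730-129473029 for Clec7a (minus strand), chr6:123261857-123262156 for Clec4d (plus), chr6:123289822-123290121 for Clec4e (minus), chr6:40585756-40586055 for Clec5a (minus) and chr6:123122440-123122739 for Clec4a2 (plus). Capitals mark GAGGAA on either strand, the core bound by PU.1, the myeloid transcription factor encoded by Spi1.
Clec7a: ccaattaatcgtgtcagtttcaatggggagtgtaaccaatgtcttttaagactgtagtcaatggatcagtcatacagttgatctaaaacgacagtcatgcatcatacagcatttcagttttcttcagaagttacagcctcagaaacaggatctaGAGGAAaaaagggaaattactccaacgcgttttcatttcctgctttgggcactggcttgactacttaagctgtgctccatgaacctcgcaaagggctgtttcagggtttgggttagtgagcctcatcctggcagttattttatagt
Clec4d: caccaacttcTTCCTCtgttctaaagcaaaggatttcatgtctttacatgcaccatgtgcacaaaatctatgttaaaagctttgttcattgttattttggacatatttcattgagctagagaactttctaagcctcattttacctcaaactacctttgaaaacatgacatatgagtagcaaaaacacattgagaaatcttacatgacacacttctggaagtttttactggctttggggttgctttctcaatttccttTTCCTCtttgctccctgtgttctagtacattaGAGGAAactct
Clec4e: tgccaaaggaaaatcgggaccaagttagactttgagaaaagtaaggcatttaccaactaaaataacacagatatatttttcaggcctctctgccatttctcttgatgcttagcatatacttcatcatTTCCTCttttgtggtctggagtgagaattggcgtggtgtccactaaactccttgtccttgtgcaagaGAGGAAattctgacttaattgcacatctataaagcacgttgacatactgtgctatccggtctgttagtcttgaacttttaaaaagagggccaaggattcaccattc
Clec5a: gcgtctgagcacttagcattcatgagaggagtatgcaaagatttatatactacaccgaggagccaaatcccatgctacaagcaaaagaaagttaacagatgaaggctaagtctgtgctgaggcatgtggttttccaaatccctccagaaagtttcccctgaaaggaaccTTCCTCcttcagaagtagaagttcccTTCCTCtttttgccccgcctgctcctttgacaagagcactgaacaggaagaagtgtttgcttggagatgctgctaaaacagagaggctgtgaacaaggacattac
Clec4a2: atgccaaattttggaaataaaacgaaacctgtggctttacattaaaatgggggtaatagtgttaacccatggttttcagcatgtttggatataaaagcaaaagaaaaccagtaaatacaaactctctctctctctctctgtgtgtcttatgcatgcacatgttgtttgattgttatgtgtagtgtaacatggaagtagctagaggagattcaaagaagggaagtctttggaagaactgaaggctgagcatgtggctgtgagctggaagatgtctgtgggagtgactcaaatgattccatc
GAGGAA was found once in the Clec7a window, 3 times in Clec4d, 2 times in Clec4e and 2 times in Clec5a, and no match was found in the Clec4a2 window. Of 27025 promoters of the same length, 28.31% held it. The AP-1 motif TGANTCA (7.933% of promoters) matched in Clec4a2 only, and the C/EBP motif TTGCNNAA (10.75%) in Clec4e only, each searched on both strands. The 3 motifs do not overlap at any of these matches, were chosen with the genes' levels known, and are letters in a window, not shown binding.

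Silica against control is the comparison from which the genes were picked, so its values describe them and were not tested. Dectin-1 RNA (Clec7a) stood at 359.9, 129 and 93.1 TPM in silica 1, 2 and 7, against 10.7, 33.3, 36.5 and 30.8 TPM in control 1, 2, 4 and 7. Every silica library was above every control. In bulk tissue, more cells that hold an RNA and more of it per cell cannot be told apart. Dectin-2 RNA (Clec4n) was at 179, 83.0 and 72.2 TPM in silica lungs, against 8.68, 16.9, 11.6 and 16.8 TPM in control lungs, a ratio of group means of 8.27. MCL RNA (Clec4d) was at 137.8, 37.3 and 30.96 TPM in silica lungs, against 4.46, 4.97, 6.71 and 5.57 TPM in control lungs, where the 4 libraries lay close together.

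Mincle RNA (Clec4e) was at 108.6, 13.6 and 17.1 TPM in silica 1, 2 and 7, against 0.31, 7.48, 2.94 and 2.19 TPM in control 1, 2, 4 and 7. Silica 1 carried most of that mean, while control 1 and control 2 lay at the 2 ends of the control range. MDL-1 RNA (Clec5a) was at 50.4, 12.3 and 5.34 TPM in silica lungs, against 1.30, 3.34, 3.70 and 3.08 TPM in control lungs. DCIR RNA (Clec4a2) was at 34.5, 25.6 and 18.3 TPM in silica lungs, against 8.25, 11.9, 13.03 and 10.6 TPM in control lungs. This inhibitory receptor had the smallest ratio of means, 2.39, where the 5 activating ones had 6.98 to 14.4. Silica 1 was the highest of the 12 lung libraries for all 6 genes on the TPM scale.

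On edgeR's log2 scale the silica minus control differences were 2.59 ± 0.60 for Clec7a, 2.98 ± 0.78 for Clec4n, 3.55 ± 0.61 for Clec4d, 3.71 ± 0.85 for Clec4e, 2.65 ± 0.46 for Clec5a and 1.17 ± 0.52 for Clec4a2 (SE). EdgeR called 2 of 17630 genes here (0.0113%), both higher in silica lungs. All 6 receptors had every silica library above every control on both scales, which was so for 2.72% of the genes tested on the TPM scale and 5.41% on normalised CPM, and nothing is read from this since it led to their choice. Within the short-gene libraries (1 silica, 1 control) the differences in log2 normalised CPM ran from 1.00 for Clec4a2 to 5.13 for Clec4e, of which that control held 24 counts. Within the long-gene libraries (2 silica, 3 controls) they ran from 1.19 for Clec4a2 to 3.61 for Clec4d. The inhibitory receptor was lowest in both.

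**Figure D1:**
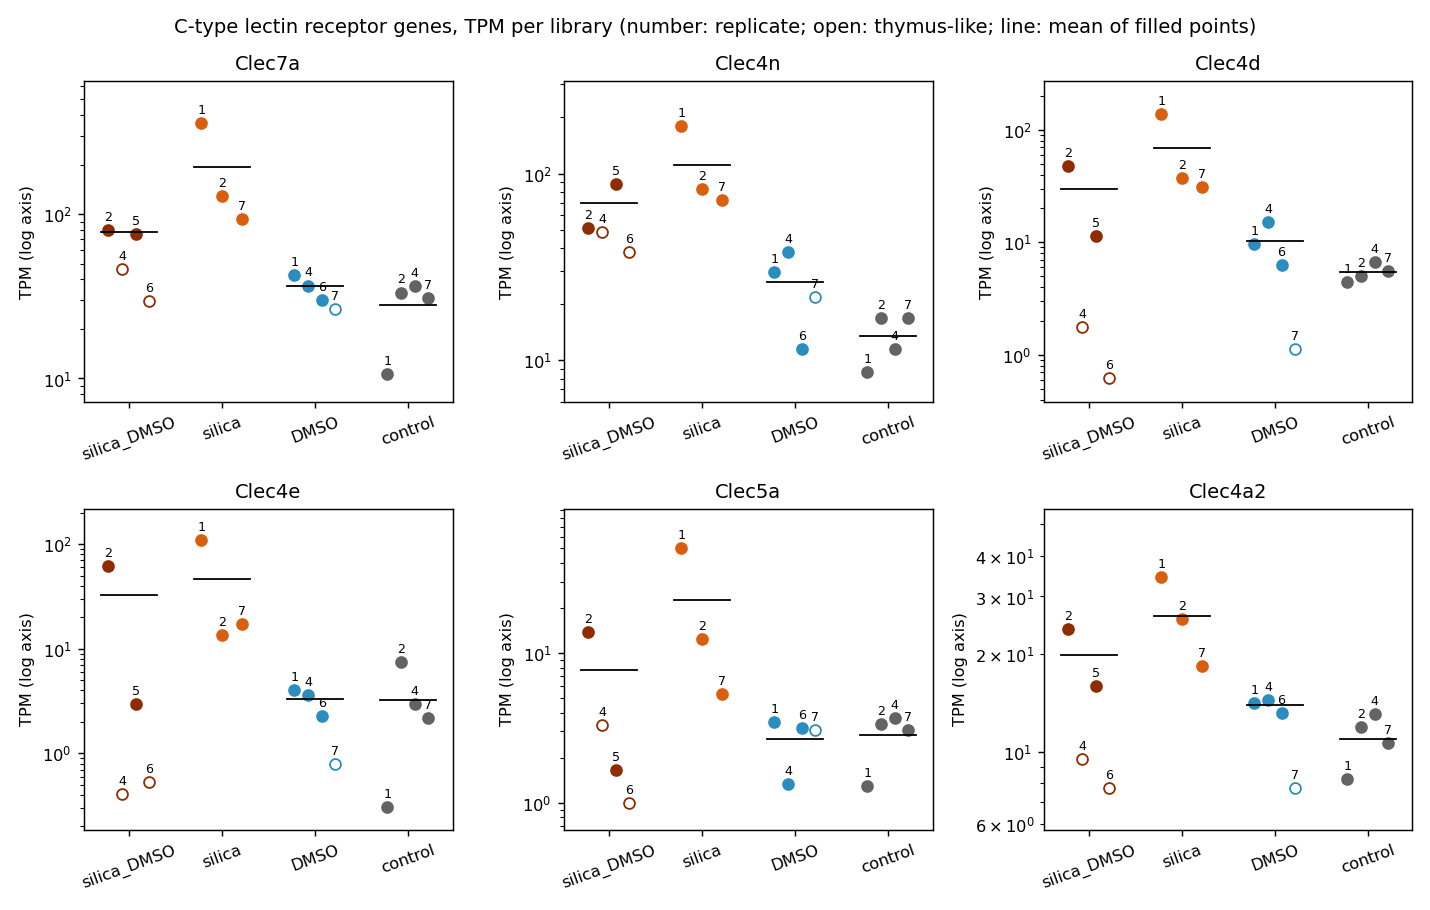
TPM of the 6 receptor genes in each library on a log axis, by group, with the replicate number above each point. Filled points are lung libraries, open points the thymus-like libraries silica_DMSO 4, silica_DMSO 6 and DMSO 7, and each line is the mean of the filled points. Silica libraries lie above all controls for every gene, and the open points lie at or under 1.76 TPM for Clec4d and Clec4e and at or above 21.8 TPM for Clec7a and Clec4n.

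Silica_DMSO against DMSO gives the effect of silica where both groups had DMSO, in libraries outside the comparison from which the genes were picked. Earlier results of these data were known when the genes were picked, so the choice may not be independent of these libraries. The 6 receptors had higher means in silica_DMSO lungs on both scales, by 2.13 times for Clec7a to 9.88 times for Clec4e in TPM, apart from Clec4a2 with 1.43 times. None passed the test across all genes, where edgeR called 0 of 17630 genes (0% called), with 335 genes at an unadjusted p under 0.05. DESeq2 called 9 genes there (0.051%), none of them a receptor.

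Dectin-1 RNA was at 80.0 and 75.7 TPM in silica_DMSO 2 and 5, against 42.6, 36.8 and 30.2 TPM in DMSO 1, 4 and 6. The groups did not overlap, and the difference in edgeR's fit was 1.65 ± 0.70 on the log2 scale (SE, edgeR adjusted p = 1.00, unadjusted p = 0.0368). Dectin-2 RNA was at 51.2 and 88.2 TPM in silica_DMSO lungs, against 29.6, 38.1 and 11.5 TPM in DMSO lungs. These groups did not overlap either, with a difference of 1.77 ± 0.89 (SE, edgeR adjusted p = 1.00, unadjusted p = 0.0707). DCIR RNA was at 23.8 and 16.0 TPM in silica_DMSO lungs, against 14.2, 14.4 and 13.2 TPM in DMSO lungs. DCIR was the third gene with no overlap in TPM, with the smallest difference of the 6, 0.71 ± 0.62 (SE, edgeR adjusted p = 1.00).

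Silica_DMSO 2 and 5 stood far apart for the other 3 receptors. Mincle RNA was at 62.4 TPM in silica_DMSO 2 and 2.94 TPM in silica_DMSO 5, against 4.0, 3.61 and 2.30 TPM in DMSO 1, 4 and 6. Only silica_DMSO 2 was above the DMSO lungs, and the difference was 1.40 ± 0.95 (SE, edgeR adjusted p = 1.00). MCL RNA was at 47.9 and 11.3 TPM in silica_DMSO 2 and 5, against 9.63, 15.1 and 6.26 TPM in DMSO lungs, a difference of 0.80 ± 0.69 (SE, edgeR adjusted p = 1.00). MDL-1 RNA was at 13.7 and 1.65 TPM in silica_DMSO 2 and 5, against 3.47, 1.34 and 3.14 TPM in DMSO lungs. Its difference was 1.22 ± 0.53 (SE, edgeR adjusted p = 1.00, unadjusted p = 0.0412).

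The scale moved which receptors were clear of the DMSO lungs. In TPM, Clec7a, Clec4n and Clec4a2 had both silica_DMSO libraries above all DMSO libraries (3 of 6, where 1.95% of genes did), and in normalised CPM it was Clec4e and Clec5a (2 of 6, where 4.73% did). Clec7a had 98.2 and 675 normalised CPM in silica_DMSO 2 and 5, against 120.0, 204 and 46.5 in DMSO 1, 4 and 6. Clec4e had 49.4 and 28.9 normalised CPM in silica_DMSO 2 and 5, against 14.9, 24.7 and 4.91 in DMSO lungs. Without silica_DMSO 5 the differences of Clec7a, Clec4n and Clec4a2 turned to -0.32, -0.55 and -0.69 on the log2 scale. Within the short-gene libraries (silica_DMSO 5 against DMSO 1 and 4) and within the long-gene libraries (silica_DMSO 2 against DMSO 6) all 6 differences in log2 normalised CPM were above 0, at 0.59 to 2.28 and 0.62 to 3.30. In log2 of TPM plus 1 the long-gene differences were 0.81 to 4.26. The short-gene ones were then -0.091 for Clec4d, -0.29 for Clec4e and -0.29 for Clec5a, and 0.15 to 1.37 for the other 3.

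**Figure D2:**
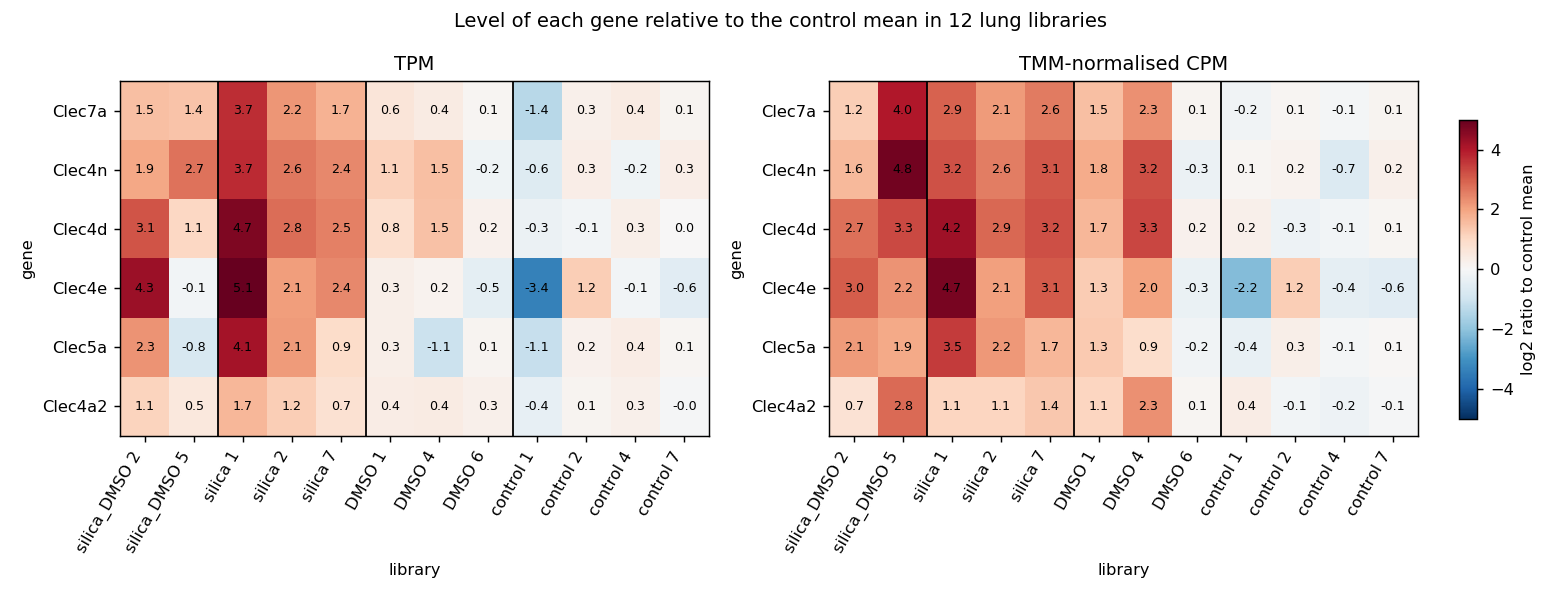
Log2 ratio of each receptor gene in each lung library to the mean of the 4 controls, in TPM (left) and in normalised CPM (right), with the value in each cell. Silica libraries are above the control mean for all 6 genes on both scales. Silica_DMSO 5 and DMSO 4, both short-gene libraries, read higher on the right than on the left for all 6 genes.

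Silica_DMSO against silica sets lungs with DMSO after silica beside lungs with silica alone, the question in the study's title, and shares the silica libraries with the comparison used to choose the genes. On the TPM scale all 6 receptors had lower means in silica_DMSO lungs than in silica lungs, at 0.338 times for Clec5a to 0.760 times for Clec4a2. Clec7a alone had both silica_DMSO libraries, at 80.0 and 75.7 TPM, below all 3 silica libraries, at 359.9, 129 and 93.1 TPM (1 of 6, where 3.02% of genes did so in TPM). In log2 of TPM plus a pseudocount of 1, the differences by limma ran from -1.39 for Clec5a to -0.36 for Clec4a2 (limma adjusted p = 0.764 for each), while the median of all genes lay at -0.48 on that scale. Clec4a2 thus lay above that median, and the other 5 below it.

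On normalised CPM the 6 receptors split in 2. Clec7a, Clec4n and Clec4a2 differed by 0.61 ± 0.70, 0.98 ± 0.89 and 0.96 ± 0.62 between silica_DMSO and silica lungs, and Clec4d, Clec4e and Clec5a by -0.50 ± 0.70, -1.04 ± 0.99 and -0.63 ± 0.55 (log2, SE). EdgeR called none of them (adjusted p = 0.997 for each) and 0 of 17630 genes (0% called, 342 at an unadjusted p under 0.05), and DESeq2 called 0. In normalised CPM none had both silica_DMSO libraries above all silica libraries (0 of 6, where 2.78% of genes did). The split followed the libraries. Silica_DMSO 5 had 675, 357 and 68.0 normalised CPM of Clec7a, Clec4n and Clec4a2, above the highest silica values of 324, 116 and 24.6. Silica_DMSO 2 had 98.2, 39.4 and 15.8, below the lowest silica values of 184, 75.8 and 19.9. Without silica_DMSO 5 these 3 differences were -1.37, -1.35 and -0.44, and without silica 1 those of Clec4d, Clec4e and Clec5a were 0.0074, 0.028 and 0.085. Within the short-gene libraries (silica_DMSO 5 against silica 7) the 6 differences in log2 normalised CPM ran from -0.83 for Clec4e to 1.71 for Clec4n, and within the long-gene libraries (silica_DMSO 2 against silica 1 and 2) from -1.31 for Clec7a to -0.34 for Clec4a2. The sign of these differences thus varied with the library and the scale.

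DMSO against control gives DMSO without silica and shares the controls with the comparison used to choose the genes. All 6 receptors had higher mean normalised CPM in DMSO lungs, with differences of 1.55 ± 0.59 for Clec7a, 2.19 ± 0.76 for Clec4n, 2.25 ± 0.59 for Clec4d, 1.27 ± 0.80 for Clec4e, 0.79 ± 0.45 for Clec5a and 1.42 ± 0.53 for Clec4a2 (log2, SE). EdgeR's adjusted p was 0.518 for Clec4e and 0.513 for the other 5, with 4 of the 6 at an unadjusted p under 0.05. It called 0 of 17630 genes (0% called), with 1519 at an unadjusted p under 0.05, and DESeq2 called 59 genes (0.335%), none of them a receptor. Limma-voom with quality weights called all 6, where it called 48.2% of all genes.

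These differences were far larger among the short-gene libraries. Dectin-2 RNA was at 45.7, 118 and 10.3 normalised CPM in DMSO 1, 4 and 6, against 7.90 to 15.1 in the 4 control lungs. DMSO 6, the long-gene library, lay inside the control range. The 2 short-gene DMSO libraries exceeded control 1, the sole short-gene control, by 1.32 for Clec4a2 to 3.72 for Clec4e in log2 normalised CPM. Control 1 held 24 counts of Clec4e. The long-gene library DMSO 6 differed from the 3 long-gene controls by between -0.40 for Clec4e and 0.32 for Clec4d. In TPM the ratios of DMSO to control means were 0.928 for Clec5a to 1.96 for Clec4n, and Clec4a2 alone had no overlap (1 of 6, where 1.08% of genes did), at 14.2, 14.4 and 13.2 TPM against 8.25 to 13.03 TPM. In normalised CPM the 1 receptor with no overlap was Clec7a (3.71% of genes), at 120.0, 204 and 46.5 in DMSO lungs against 37.8 to 46.1 in control lungs.

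**Figure D3:**
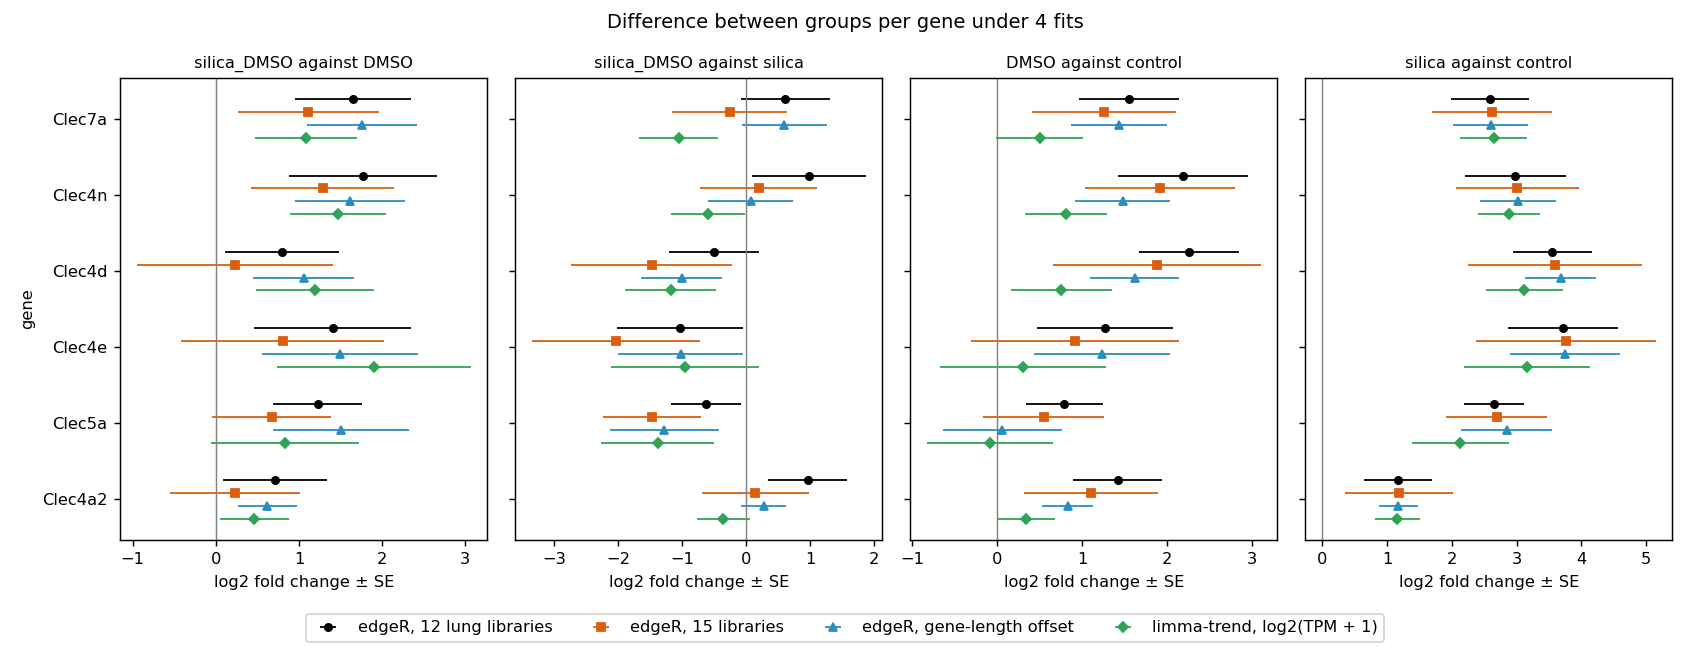
Log2 differences with their SE for the 6 receptors in 4 comparisons, each under 4 fits (edgeR on the 12 lung libraries, edgeR on all 15, edgeR with an offset for gene length in each library, and limma on log2 of TPM plus 1). Silica against control is at or above 1.16 in every fit shown, whereas silica_DMSO against silica lies on both sides of 0.

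Placed in order of mean TPM, 5 of the 6 receptors ran from silica through silica_DMSO and DMSO to control. Clec5a had DMSO below control (2.65 and 2.86 TPM), and for Clec4e these 2 groups were 3.30 ± 0.89 TPM in DMSO lungs (SD, n = 3) and 3.23 ± 3.04 TPM in control lungs (SD, n = 4). Neighbouring groups in the order overlapped throughout for Clec4d, Clec4e and Clec5a. In TPM the neighbours that did not overlap were silica_DMSO below silica for Clec7a, silica_DMSO above DMSO for Clec7a, Clec4n and Clec4a2, and DMSO above control for Clec4a2.

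The thymus-like libraries parted the receptors in another way. Clec7a stood at 46.5 and 29.4 TPM in silica_DMSO 4 and 6 and 26.5 TPM in DMSO 7, within or above the control range of 10.7 to 36.5 TPM. Clec4n was at 48.8, 37.99 and 21.8 TPM in them, above all 4 controls, the highest of which had 16.9 TPM. Clec4d was at 1.76, 0.62 and 1.13 TPM, below the lowest control at 4.46 TPM, and Clec4e at 0.41, 0.53 and 0.79 TPM. Macrophage and monocyte marker genes summed to 1370 to 3244 TPM in the 3 libraries, against 4328 to 10235 TPM in control lungs, sums made up mostly of Lyz2 in each of these libraries. Without Lyz2 the markers summed to 726, 656 and 333 TPM in silica_DMSO 4, silica_DMSO 6 and DMSO 7, against 193 to 386 TPM in control lungs, so silica_DMSO 4 and 6 were then above the controls. With all 15 libraries in the fit, silica_DMSO against DMSO gave 1.11 for Clec7a, 1.29 for Clec4n, 0.23 for Clec4d, 0.80 for Clec4e, 0.67 for Clec5a and 0.23 for Clec4a2 (edgeR adjusted p of 0.998 or more), and silica_DMSO against silica turned to -0.26 for Clec7a.

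Across the 12 lung libraries the 15 pairs of receptors had correlations of log2 normalised CPM between 0.538 (Clec4e with Clec4a2) and 0.985 (Clec7a with Clec4n), with a median of 0.864. The libraries share their groups and the gene length split, and with the share of counts in long genes the receptors had r of -0.803 (Clec4a2), -0.609 (Clec4n), -0.524 (Clec7a), -0.371 (Clec4d), -0.021 (Clec4e) and -0.0074 (Clec5a). Clec7a, Clec4n and Clec4a2 ran with each other at 0.901 or more, and Clec4e with Clec5a at 0.925. With an offset for gene length in each library, Clec7a had 0.979 with Clec4n and 0.971 with Clec4a2, and Clec4n had 0.962 with Clec4a2. This grouping thus held there. Clec4e with Clec5a was 0.797 with that offset, below Clec4e with Clec4d at 0.923. In log2 TPM Clec7a, Clec4n and Clec4a2 did not stand apart, since Clec4e with Clec4a2 was 0.908, above Clec4n with Clec4a2 at 0.880.

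The genes whose pattern over the 12 libraries was most like each receptor came from a comparison of 12734 genes of at least 1 TPM. For Clec7a they were the chemokine genes Ccl6 (r = 0.979) and Ccl9 (0.974) and the matrix protein gene Tgfbi (0.977). For Clec4n they were Mthfd2, a mitochondrial folate enzyme (0.984), Ccl6 (0.981) and the macrophage lipid receptor Trem2 (0.978). For Clec4d they were the mitotic kinesin Kifc1 (0.968), the co-stimulatory receptor Tnfrsf9 (0.965) and Arl11 (0.960). Clec4e was closest to the heme oxygenase gene Hmox1 (0.964), the spindle gene Nusap1 (0.938) and the scavenger receptor Msr1 (0.934). Clec5a was closest to cyclin A2 (Ccna2, 0.970), Gpnmb (0.964) and Lhfpl2 (0.961). These 3 values fell to between 0.693 and 0.745 with an offset for gene length in each library. Clec4a2 was closest to the chemokine gene Ccl8 (0.985) and to Bcl2a1b (0.990) and Bcl2a1d (0.986), 2 near-identical copies of a survival gene between which reads can be split. These are descriptions over libraries that share groups, and no test was made.

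Other lectin genes are given beside the 6. Of 14 lectin genes from the same 2 gene clusters 12 were tested, and their median difference was 0.33 in silica_DMSO against DMSO lungs and -0.12 in silica against control lungs, beside 0.05 and -0.03 for all genes. The 6 receptors had a median of 1.31 in silica_DMSO against DMSO lungs. Single lectins of the 2 lists, Olr1, Clec12b, Mrc1 and Lgals3, had differences above those of at least 4 of the 6. None was called in any of the 4 comparisons. Among the 12 tested lectins of the 2 gene clusters the lowest p in silica_DMSO against DMSO belonged to Olr1, the receptor for oxidised LDL next to Clec7a. Olr1 was at 20.6 ± 7.81 normalised CPM in silica_DMSO lungs (SD, n = 2) and 7.06 ± 2.17 in DMSO lungs (SD, n = 3), a difference of 1.54 ± 0.50 (SE, edgeR adjusted p = 1.00). DESeq2 called Olr1 in silica against control (2.15 ± 0.46, SE, DESeq2 adjusted p = 0.00137), where it called 0.851% of all genes. Clec2g (-4.11 ± 1.55) and Clec12b (1.56 ± 0.89) followed, with group means of at most 1.04 and 1.501 normalised CPM in the 2 groups. Clec4a3 and Clec4a1, relatives of Clec4a2 in the Dectin-2 cluster, had differences of -0.12 ± 0.42 and -0.61 ± 0.44 in silica_DMSO against DMSO lungs and 0.60 ± 0.35 and 0.56 ± 0.36 in silica against control lungs (SE, none called), and are named here for that kinship after their values were seen.

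Of 26 further lectin genes 24 were tested, with medians of 0.39 in silica_DMSO against DMSO lungs and 0.08 in silica against control lungs, and none called. The lowest p-values in silica_DMSO against DMSO belonged to the mannose receptor Mrc1 (1.45 ± 0.46), the dendritic cell lectin Cd209a (-1.21 ± 0.50) and galectin-3 (Lgals3, 1.72 ± 0.87, SE, edgeR adjusted p = 1.00 for each). Galectin-3 is in this list but is not a C-type lectin. Mrc1 was at 177 ± 134 normalised CPM in silica_DMSO lungs (SD, n = 2) and 65.0 ± 21.9 in DMSO lungs (SD, n = 3).

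All 32 signalling proteins below the receptors were tested, none was called in any comparison, and their medians were 0.17 in silica_DMSO against DMSO lungs, -0.29 in silica_DMSO against silica lungs, -0.20 in DMSO against control lungs and 0.27 in silica against control lungs. The adaptor of Dectin-2, MCL and Mincle, Fcer1g, had 51.2 ± 21.8 normalised CPM in silica_DMSO lungs (SD, n = 2) and 51.1 ± 16.3 in DMSO lungs (SD, n = 3), a difference of 0.0011 ± 0.38 (SE, edgeR adjusted p = 1.00). In silica against control it was 75.6 ± 6.84 in silica lungs (SD, n = 3) and 37.1 ± 8.52 in control lungs (SD, n = 4), a difference of 1.03 ± 0.31 (SE, edgeR adjusted p = 0.524). Tyrobp, the adaptor of MDL-1, differed by 0.81 ± 0.78 in silica_DMSO against DMSO lungs and 1.34 ± 0.66 in silica against control lungs (SE, edgeR adjusted p of 1.00 and 0.879). Syk differed by 0.36 ± 0.56 and 0.95 ± 0.47 and Card9 by -0.03 ± 0.51 and -0.0043 ± 0.42 in the same 2 comparisons. These 4 were chosen as the receptors' direct partners, after their values were seen. The 3 of lowest p in silica_DMSO against DMSO were Egr2 (1.06 ± 0.53) and Egr3 (1.05 ± 0.55), transcription factors induced by Syk signalling, and the phosphatase Inpp5d (0.62 ± 0.41; SE, edgeR adjusted p = 1.00 for each).

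Cytokine, chemokine and feedback genes known as products of this signalling had a median close to that of the receptors in silica_DMSO against DMSO lungs, but not in DMSO against control lungs (0.21 beside 1.48). Of 20 genes 18 were tested, none was called, and their medians were 1.26 in silica_DMSO against DMSO lungs and 1.51 in silica against control lungs. In silica_DMSO against DMSO 17 of the 18 differences were above 0, where 54.5% of all genes were. In TPM the 20 genes summed to 901 and 74.1 in silica_DMSO 2 and 5, against 93.1, 71.1 and 209 in DMSO 1, 4 and 6. Silica_DMSO 5 thus lay within the DMSO range on that scale. Cxcl1 and Cxcl2, chemokines that draw neutrophils, differed by 2.37 ± 0.73 and 6.17 ± 1.93, and Ccl4 by 2.29 ± 0.72 (SE, edgeR adjusted p = 1.00 for each). Cxcl2 was at 417 and 1.23 TPM in silica_DMSO 2 and 5, against 0.47, 1.47 and 1.41 TPM in DMSO 1, 4 and 6, so silica_DMSO 2, the library with the high Mincle value, carried that difference. With the silica and control libraries fitted alone, edgeR called Ccl2 (3.15 ± 0.47, SE, edgeR adjusted p = 0.0484), where it called 0.249% of 16467 genes. In silica against control DESeq2 called Ccl3 (3.63 ± 0.81), Cxcl1 (2.76 ± 0.64) and Ccl2 (3.14 ± 0.75, SE), where it called 0.851% of all genes. Their DESeq2 adjusted p was 0.00258, 0.00446 and 0.00613.

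Of 17 transcription factors of myeloid cells all were tested and none was called, with medians of 0.18 in silica_DMSO against DMSO lungs and 0.48 in silica against control lungs. Maf (0.97 ± 0.42), Tfec (1.28 ± 0.55) and Mitf (1.01 ± 0.46) had the lowest p-values in silica_DMSO against DMSO (SE, edgeR adjusted p = 1.00 for each). Spi1, whose product binds the motif in capitals above, differed by -0.17 ± 0.34 in silica_DMSO against DMSO lungs and by 0.94 ± 0.28 in silica against control lungs (SE, edgeR adjusted p of 1.00 and 0.515), and is named for that motif after its values were seen.

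**Figure D4:**
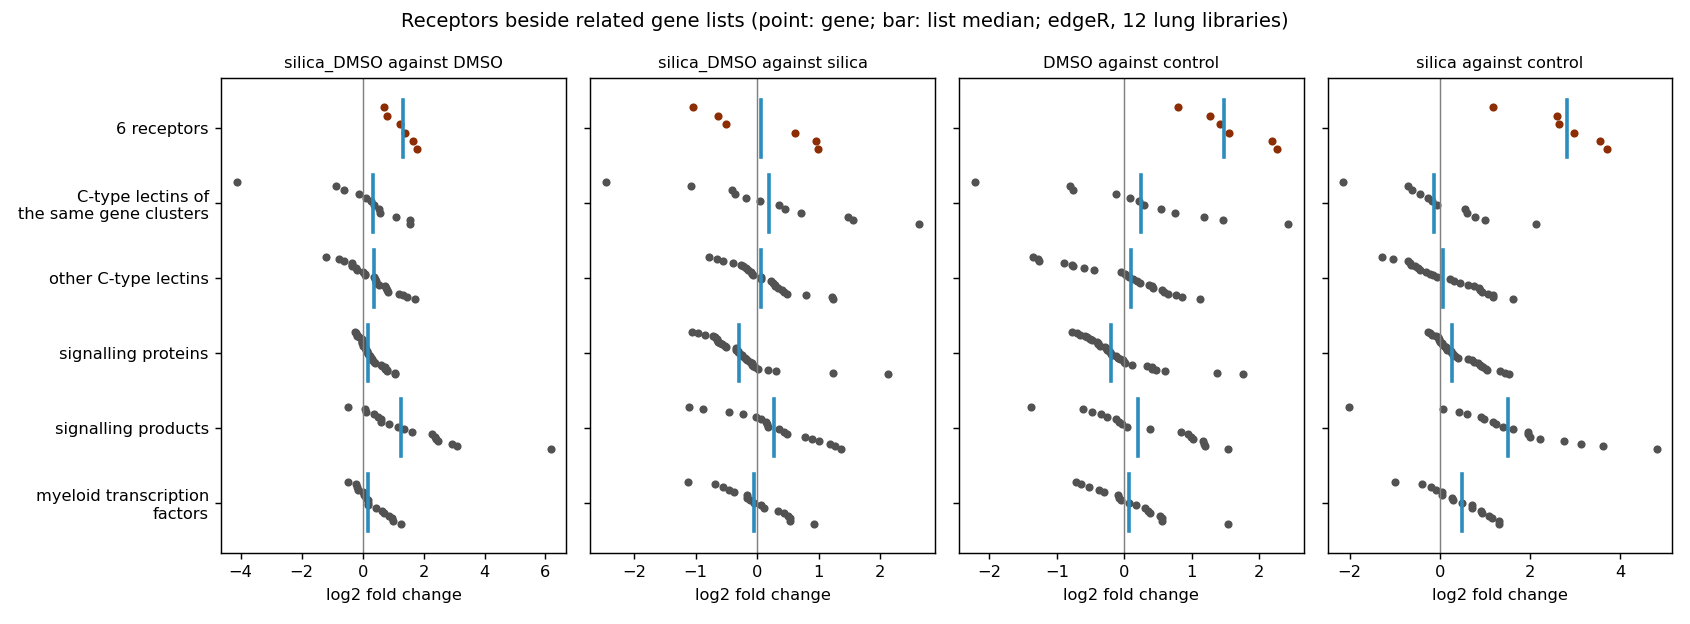
Log2 difference of each tested gene (points) of the 6 receptors and of 5 lists of related genes in 4 comparisons by edgeR on the 12 lung libraries, with blue bars at the list medians. In silica_DMSO against DMSO the receptors, at a median of 1.31, lie beside the signalling products at 1.26, while the signalling proteins lie at 0.17.

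On edgeR's log2 scale macrophage markers stood higher in the same comparisons as the receptors. All 12 macrophage and monocyte markers, among them Csf1r, Cd68 and Adgre1, had positive differences in silica_DMSO against DMSO lungs (median 0.70) and in silica against control lungs (median 1.67), and 9 of 12 did in DMSO against control lungs (median 1.03). None was at 0 in any lung library. Their summed level ran from 6433 to 11106 TPM in silica_DMSO lungs, 10322 to 23110 TPM in silica lungs, 7591 to 9859 TPM in DMSO lungs and 4328 to 10235 TPM in control lungs. In TPM silica_DMSO 5, at 6433, thus lay below every DMSO lung. EdgeR on the silica and control libraries alone called Cd68, Ms4a7, C1qb and C1qc, 4 of the 12, where it called 0.249% of all genes. Of 10 neutrophil markers, 3 had positive differences in silica_DMSO against DMSO lungs (median -0.42), 8 in DMSO against control lungs (median 2.13) and all 10 in silica against control lungs (median 1.58). They summed to 468 to 1906 TPM in silica_DMSO lungs, 301 to 2952 TPM in silica lungs, 999 to 1687 TPM in DMSO lungs and 252 to 770.0 TPM in control lungs, with at most 1 marker at 0 in a library. The part of these markers' cells in the receptor values was not tested.

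The receptors are also given as a share of the macrophage and monocyte marker sum of the same library, as a description with no test, since silica against control chose the genes. Lyz2, the lysozyme gene, made up 93.7% to 97.5% of that sum in lung libraries, so shares of the whole sum and of the sum of the other 11 markers are both printed. Clec7a was 0.720% and 1.18% of the whole sum in silica_DMSO lungs, 0.902% to 1.56% in silica lungs, 0.330% to 0.484% in DMSO lungs and 0.247% to 0.405% in control lungs. Of the sum without Lyz2 it was 11.8% and 18.6% in silica_DMSO lungs, 16.8% to 27.1% in silica lungs, 8.29% to 17.03% in DMSO lungs and 5.54% to 13.7% in control lungs. For Dectin-1 the silica_DMSO lungs were above the DMSO lungs on the whole sum and overlapped them without Lyz2.

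Dectin-2 and MCL, like Dectin-1, were clear of the controls in silica lungs on both sums. Nothing is read from this or from the overlaps below, since this comparison chose the genes. How many other genes would be as clear on these sums was not counted. Clec4n was 0.6402% to 0.776% of the whole sum in silica lungs and 0.128% to 0.201% in control lungs. Without Lyz2 it was 10.9% to 13.5% in silica lungs and 2.996% to 6.94% in control lungs. Clec4d was 0.288% to 0.596% of the whole sum in silica lungs and 0.0544% to 0.103% in control lungs. Without Lyz2 it was 4.901% to 10.4% in silica lungs and 1.74% to 2.32% in control lungs. The choice of sum moved Mincle, MDL-1 and DCIR. Clec4e was 0.105% to 0.470% of the whole sum in silica lungs and 0.00716% to 0.0892% in control lungs, and without Lyz2 1.78% to 8.16% in silica lungs and 0.161% to 3.08% in control lungs. Clec5a was 0.0517% to 0.218% of the whole sum in silica lungs and 0.0300% to 0.0410% in control lungs, and without Lyz2 0.964% to 3.79% in silica lungs and 0.675% to 1.38% in control lungs. Both genes were clear of the controls on the whole sum and overlapped them without Lyz2. Clec4a2, the inhibitory receptor, was 0.149% to 0.197% of the whole sum in silica lungs and 0.104% to 0.191% in control lungs, which overlapped. Without Lyz2 it was 2.60% to 3.36% in silica lungs and 3.37% to 4.89% in control lungs, where all silica libraries were below the controls.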

How the data were processed

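Lung RNA was sequenced in 15 libraries. Deposited expected counts (per gene and library) and deposited TPM were both made by the authors. Their 2 tables also give the authors' gene lengths in bases and, in 8 columns not used here, group means. Bowtie 0.12.2 and build mm8 are named in the submitters' processing notes, while no counting program is named in the sources used here. Totals of 17434653 to 20829923 counts per library set the counting precision, and the spread between libraries exceeds it, with a biological coefficient of variation of 0.520.

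Expected counts were rounded to whole numbers. Genes were filtered with edgeR's filterByExpr (smallest count 10, smallest total 15), leaving 17630 of 57010, and scaled by TMM. EdgeR's quasi-likelihood F test (robust) was fitted to 4 group means of 12 lung libraries, adjusted by Benjamini and Hochberg over all genes tested, and called at an adjusted p under 0.05. The SE is the log2 difference over the root of F. Correlations used log2 normalised CPM with a prior count of 2. The 3 thymus-like libraries were left out and given apart. Groups and replicate numbers come from the labels. Same-numbered libraries deviated together no more than others (median r of -0.014 and -0.023), which cannot exclude a pairing, and the main fit used no replicate block.

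Members, lists, motifs and alternatives were chosen with earlier results of these data known. Genes named beside the 6 receptors were the 3 most similar per receptor, with the receptors, predicted genes and immunoglobulin and T cell receptor segments left out. Per list they were called genes or otherwise the 3 of lowest p in silica_DMSO against DMSO, with exceptions stated where they stand. Alternatives were all 15 libraries, the 2 groups compared alone, DESeq2 or upper-quartile factors, DESeq2's test, limma-voom, limma-trend on log2 of TPM plus 1 or 0.1, no filter or 1 CPM in 3 libraries, a gene length offset, the length split as a term, the replicate block, and leaving out each library. Tests were tried on simulated data. Software was R 4.3.3, edgeR 4.0.16, limma 3.58.1, DESeq2 1.42.0 and data.table (version 1.17.8), with figures by Python 3.11.15 and matplotlib 3.10.9.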

Additional observations from a re-analysis of the deposited data

Results flagged for a closer look

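Clec4e stood at 62.4 TPM in silica_DMSO 2, against 2.94, 0.41 and 0.53 TPM in silica_DMSO 5, 4 and 6, and this library lay far from the other 3 of its group by Dixon's criterion. Of 18 sets of 4 libraries (each receptor in the silica_DMSO, DMSO and control groups) it was the only one so marked, and chance marks about 1 in 20. Silica_DMSO 4 and 6 are the thymus-like libraries, and silica_DMSO 5 a short-gene library.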

How the results depend on the processing

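No receptor was called in silica_DMSO against DMSO or in silica_DMSO against silica under any of the alternatives run, and in DMSO against control limma-voom alone called all 6 (adjusted p from 0.00249 to 0.0496, 48.2% of genes). Silica against control kept its direction for all 6 receptors under each alternative run. In silica_DMSO against silica the differences turned for Clec7a with all 15 libraries (-0.26), for Clec4d and Clec4e by limma-voom (0.073 and 0.38), and for Clec7a, Clec4n and Clec4a2 on log2 of TPM plus 1 (-1.06, -0.60 and -0.36) or plus 0.1 (-1.07, -0.61 and -0.37). In DMSO against control Clec5a turned to -0.083 and -0.11 on these scales. With the replicate number as a block (replicate block), Clec7a, Clec4n and Clec4a2 turned to -0.44, -0.95 and -0.78 in silica_DMSO against DMSO and to -1.24, -1.25 and -0.35 in silica_DMSO against silica. The block gives silica_DMSO 5 and DMSO 6 a term of their own, since no other library has their number. The 8 same-numbered pairs correlated from -0.457 to 0.386, and 45 other pairs from -0.636 to 0.636. With so few pairs and such wide ranges, whether the numbers pair the samples cannot be decided. Leaving out 1 library gave, in silica_DMSO against DMSO, -0.32 to 2.43 for Clec7a, -0.55 to 2.85 for Clec4n and -0.69 to 1.48 for Clec4a2, the lowest without silica_DMSO 5. In silica_DMSO against silica it gave -1.37 to 1.40, -1.35 to 1.81 and -0.44 to 1.64 for these 3, and -0.82 to 0.0074, -1.49 to 0.028 and -0.95 to 0.085 for Clec4d, Clec4e and Clec5a. The cause of the other turns was not tested.

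Counts of called genes over all genes moved as follows. In silica_DMSO against DMSO (0 called) it was 9 by DESeq2, 1 on log2 of TPM plus 1, 1 with no filter and 1 with the length split as a term, and 0 to 3 when leaving out 1 library. In silica_DMSO against silica (0 called) leaving out 1 library gave 0 to 2. In DMSO against control (0 called) it was 59 by DESeq2 and 8506 by limma-voom, and 0 to 2 when leaving out 1 library. In silica against control (2 called) it was 0 with all 15 libraries and 0 with the replicate block, 41 with these 2 groups alone, 150 by DESeq2, 1356 by limma-voom, 21 with no filter, 8 with the length offset and 15 with the length split, and 1 to 13 when leaving out 1 library. Comparisons with silica_DMSO rest on 2 lung libraries, 1 from each side of the length split, so each left-out fit there has a lone library assumed to vary like the other groups.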
